A study of Mus with 2 samples.

Results

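The 9 genes *Ythdf1*, *Ythdf2*, *Ythdf3*, *Ythdc1*, *Ythdc2*, *Igf2bp2*, *Igf2bp3*, *Hnrnpa2b1* and *Hnrnpc* encode proteins known as readers of the mRNA modification m6A, and they were taken by name from the 32285 genes in the files. Their levels were described in single-nucleus RNA sequencing (snRNA-seq) data of interscapular brown adipose tissue (iBAT) from C57BL/6 mice that ate a normal chow diet until the age of 8 weeks. The *Wtap* flox/flox library held nuclei of mice with loxP sites in the *Wtap* gene, and the library labelled *Wtap*-BKO held nuclei of mice with the same alleles and *Ucp1*-iCre, which is active in brown adipocytes. Frozen iBAT of 4 mice was pooled in each library, and each genotype had 1 library, so no test between genotypes could be made and no p-value is given.

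The modification m6A is written on nascent mRNA by a complex of METTL3, METTL14 and WTAP, and *Wtap* was the targeted gene. Readers bind modified mRNA and set its fate. YTHDF1, YTHDF2 and YTHDF3 act in the cytoplasm on translation and decay, YTHDC1 acts in the nucleus on splicing and export, and YTHDC2 is an RNA helicase known for its role in meiosis. IGF2BP2 and IGF2BP3 are mRNA-binding proteins that stabilise targets, IGF2BP2 is known for a role in adipose metabolism, and IGF2BP3 is best known as an oncofetal protein. HNRNPA2B1 and HNRNPC are abundant nuclear RNA-binding proteins of splicing and mRNA maturation, whose access to some transcripts is altered by m6A.

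In the mouse genome build mm10, as listed by RefSeq, *Ythdf1* is at chr2:180904377-180920936, *Ythdf2* at chr4:132184916-132212256 and *Ythdf3* at chr3:16183148-16217037. *Ythdc1* is at chr5:86803980-86836659, *Igf2bp2* at chr16:22059009-22163299 and *Igf2bp3* at chr6:49085218-49215469. *Hnrnpa2b1* is at chr6:51460434-51470048 and *Hnrnpc* at chr14:52073377-52104039. All 9 are annotated as protein-coding genes. RefSeq lists *Malsu1*, which is also in the files, as overlapping *Igf2bp3*, so reads at the overlap could have been counted for either gene. No gene overlaps the other members in that annotation.

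The *Wtap* flox/flox library (hereafter flox/flox) held 9494 nuclei and 10770604 unique molecular identifiers (UMIs, counts of captured RNA molecules), and the library labelled BKO held 8772 nuclei and 13945673 UMIs. Median depth was 954 and 1306 UMIs per nucleus, and mitochondrially encoded genes took 7.60% and 11.7% of UMIs. The libraries shared 20 cell barcodes. Nuclei were clustered without the 9 genes and *Wtap*, and clusters were named from marker genes of each lineage. Adipocyte-like nuclei numbered 6737 in flox/flox and 4916 in the library labelled BKO, macrophage-like 292 and 1117, T cell-like 131 and 806, fibroblast-like 280 and 494, endothelial-like 1172 and 861, and pericyte-like 444 and 212. All markers of the own lineage were detected in these 6 classes except *Cd4*, which had 0 UMIs in T cell-like nuclei of flox/flox. Adipocyte markers were also detected in all other classes, and their summed level is given below beside the results of each of those classes. In adipocyte-like nuclei themselves the 12 markers summed to 18930 CPM in flox/flox and 17868 CPM in the library labelled BKO. The part of adipocyte RNA in the ratios of other classes to adipocyte-like nuclei was not tested. *Wtap* itself had 383 UMIs, 50.5 counts per 1000000 (CPM), in adipocyte-like nuclei of flox/flox and 404 UMIs, 48.6 CPM, in those labelled BKO, a log2 ratio of -0.06 with an interval of -0.26 to 0.15. The *Wtap* mRNA counted here therefore did not separate the libraries. The labels do not say whether reads in the deleted exon were needed for a count, and the second library is called by its label throughout.

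UMIs were summed over the nuclei of a class in a library and divided by all UMIs of those nuclei to give CPM. The ratio between libraries is the CPM in the library labelled BKO over that in flox/flox, on the log2 scale. The 95% intervals given with CPM values, ratios and shares cover counting error only and not the spread between mice or preparations. CPM values were not divided by gene length, so they are compared between classes and libraries for 1 gene and never between genes. A gene entered counts of members or of all genes in a class if it had at least 20 UMIs in both libraries together. All 9 genes reached this in adipocyte-like and in macrophage-like nuclei, 8 in fibroblast-like nuclei, and 7 each in endothelial-, T cell- and pericyte-like nuclei.

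The spread between classes was taken gene by gene. From the lowest to the highest of 6 classes, the fold was 2.75 for *Ythdf1* in flox/flox (interval on the log2 scale 0.12 to 2.63) and 2.45 for *Ythdf2* in the library labelled BKO (0.32 to 2.45). In flox/flox it was 1.78 for *Ythdf3* (0.35 to 1.29), 1.80 for *Ythdc1* (0.35 to 1.31), 1.94 for *Ythdc2* (0.06 to 2.03) and 1.57 for *Hnrnpc* (0.41 to 0.89), and in the library labelled BKO it was 1.59 for *Hnrnpa2b1* (0.53 to 0.80). For each of these genes the fold was smaller in the other library. There the interval held 0 for *Ythdf1* (1.64-fold, -0.02 to 1.47), *Ythdf2* (1.53-fold, -0.19 to 1.37) and *Ythdc2* (1.42-fold, -0.52 to 1.37). The highest and lowest class were picked from the same counts, and the intervals do not allow for that choice. The lowest class was endothelial-like for *Ythdf1*, *Ythdf2*, *Ythdf3*, *Ythdc1*, *Igf2bp2* and *Hnrnpc* in flox/flox, where the median log2 ratio of endothelial-like over adipocyte-like nuclei was -0.35 over all genes and mitochondrial genes took 16.4% of the UMIs of the class. In the library labelled BKO, where that median was 0.01, the lowest class was endothelial-like for *Ythdf1*, *Ythdf3* and *Hnrnpc*. When the 6 classes were ordered by CPM, neighbours in the order had intervals of their ratio that left out 0 in 2 of 45 pairs in flox/flox and in 7 of 45 pairs in the library labelled BKO. For *Ythdf1*, *Ythdf2*, *Ythdc1*, *Ythdc2* and *Hnrnpc* no neighbours were separated in either library. For *Ythdf3*, pericyte-like nuclei were separated from endothelial-like nuclei, the lowest class, in flox/flox, and macrophage-like nuclei, the highest class, from T cell-like nuclei in the library labelled BKO. For *Hnrnpa2b1* no neighbours were separated in flox/flox, and T cell-like nuclei from the next class and macrophage-like from adipocyte-like nuclei, the lowest class, were in the library labelled BKO. *Igf2bp2* differed 6.97-fold between the highest and the lowest class in flox/flox and 7.22-fold in the library labelled BKO, and its interval in flox/flox, 1.39 to 4.30 on the log2 scale, overlapped that of *Ythdf1*. For *Igf2bp3* in flox/flox, with 0 UMIs in the lowest class, the interval of the highest over the lowest class held 0. *Igf2bp2* was highest in fibroblast-like nuclei in both libraries, and *Igf2bp3* was highest in macrophage-like nuclei in both.

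Levels at least 2-fold from those in adipocyte-like nuclei of the same library were found 10 times, of which 9 were in the *Igf2bp* genes. The shares of all genes beside them include genes with 0 UMIs in a class, set to 3 UMIs. In a class of few UMIs this can raise the share called higher and lower the share called lower, so the shares give scale only. In flox/flox, *Igf2bp3* was higher in macrophage-like nuclei, against 21% of all genes, and in T cell-like nuclei, against 27% and from 1 UMI, with an interval that held 0, and *Igf2bp2* was higher in fibroblast-like nuclei, against 20.3%. *Igf2bp2* was lower in endothelial-like nuclei, against 19.2%, and in macrophage-like nuclei, against 10.7% and from 2 UMIs, with an interval that held 0. In the library labelled BKO, both genes were higher in macrophage-like nuclei and *Igf2bp3* in T cell-like nuclei, each against 20.6%, and *Igf2bp2* in fibroblast-like nuclei, against 18.2%. The remaining one was *Ythdf2*, lower in pericyte-like nuclei labelled BKO, against 14.4%, with 9 UMIs. In the other direction or library of these classes 0 members were found, where the shares of all genes were 11.7%, 17.7% and 13.6% for endothelial-like nuclei (higher in flox/flox, then higher and lower in the library labelled BKO), 18.2% for macrophage-like nuclei lower in the library labelled BKO, 7.11% and 15.2% for T cell-like nuclei lower in the 2 libraries, 13.9% and 17.6% for fibroblast-like nuclei likewise, and 15.9%, 16.4% and 21.6% for pericyte-like nuclei (higher and lower in flox/flox, then higher in the library labelled BKO).

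**Figure D1:**
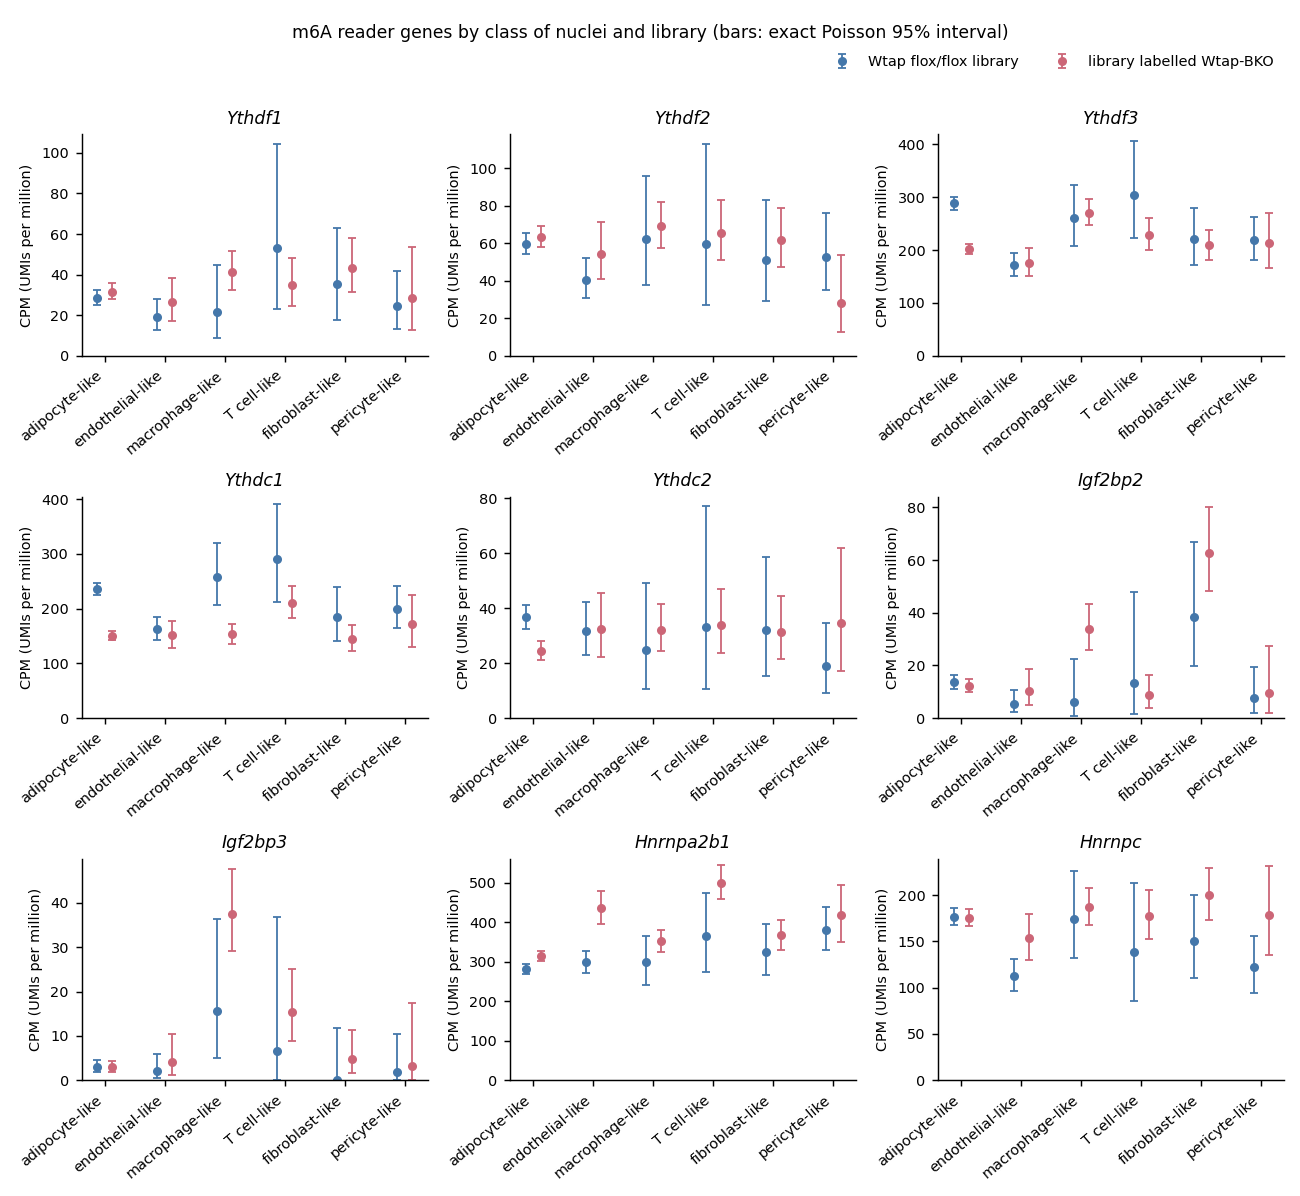
Level of each of the 9 reader genes (CPM, linear axis from 0) in 6 classes of nuclei, with flox/flox in blue and the library labelled BKO in red. Points are sums over the nuclei of 1 library and bars are exact Poisson 95% intervals. *Igf2bp2* peaks in fibroblast-like nuclei and *Igf2bp3* in macrophage-like nuclei, while *Ythdf3* and *Ythdc1* in adipocyte-like nuclei are lower in red than in blue.

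Differences between libraries in adipocyte-like nuclei, the class in which *Ucp1*-iCre is meant to act, differed by gene. *Ythdf3*, *Ythdc1* and *Ythdc2* had lower CPM in the library labelled BKO, *Hnrnpa2b1* had slightly higher CPM, and the intervals of *Ythdf1*, *Ythdf2*, *Igf2bp2*, *Igf2bp3* and *Hnrnpc* held 0. At least 1.5-fold lower CPM was found for 2 of 9 members, *Ythdc1* and *Ythdc2*, against 12.2% of the 14067 genes counted. Neither was past 1.5-fold without nuclei over 5% mitochondrial UMIs, at log2 ratios of -0.34 and -0.38. The same held with mitochondrial genes left out of the total, at -0.53 and -0.47. At least 1.5-fold higher CPM was found for 0 of 9 members, against 25.2% of genes. Among the 5167 genes with at least 500 UMIs, a background chosen after the data were seen, the shares were 11.6% and 13.3%. The median log2 ratio was -0.07 over the 9 members, which went from -0.64 to 0.16, and 0.07 over all genes, and nothing is read from the median of so few genes. *Ythdc1* had a lower ratio than all but 10.3% of genes, *Ythdc2* than all but 12.1% and *Ythdf3* than all but 14.6%.

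**Figure D2:**
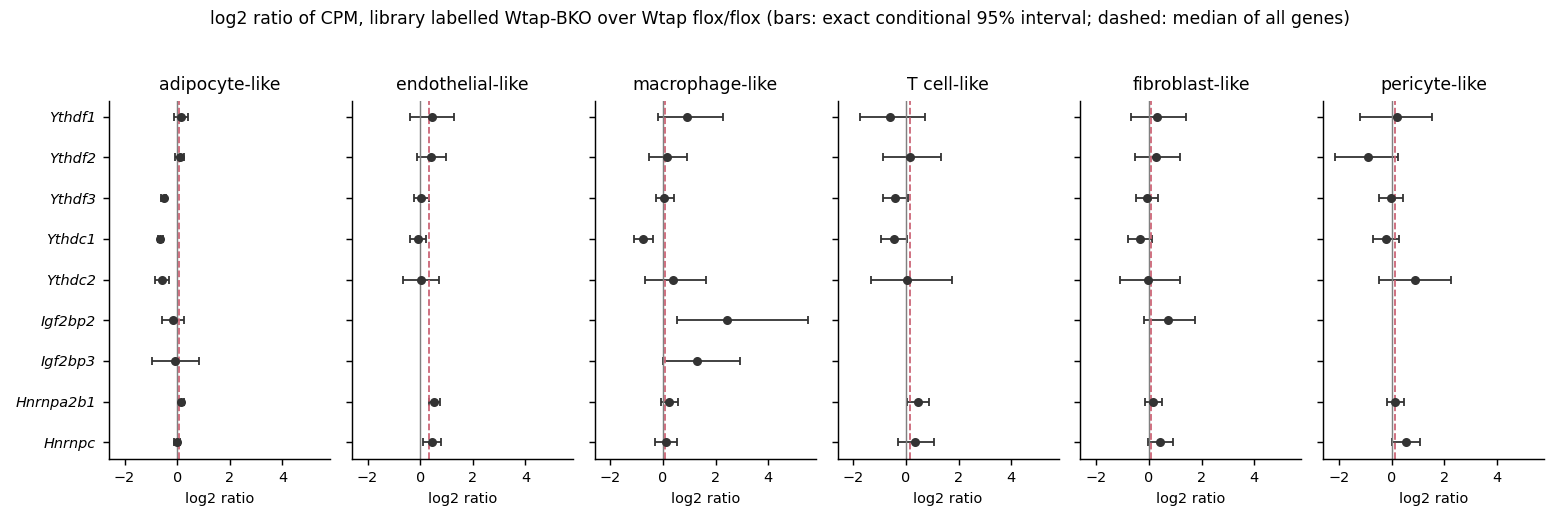
The log2 ratio of CPM, library labelled BKO over flox/flox, for each reader gene with at least 20 UMIs in a class, with 1 panel per class. Bars are exact conditional 95% intervals and the dashed line is the median over all genes of that class. *Ythdf3*, *Ythdc1* and *Ythdc2* lie left of 0 in adipocyte-like nuclei, *Ythdc1* also in macrophage-like nuclei, and *Igf2bp2* lies far to the right in macrophage-like nuclei.

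Among the cytoplasmic YTHDF readers, *Ythdf3* was the one with a lower level in adipocyte-like nuclei labelled BKO. *Ythdf3* had 2189 UMIs in flox/flox and 1674 in the library labelled BKO, which gave 289 and 201 CPM and a log2 ratio of -0.52 with an interval of -0.61 to -0.43. In the other classes its level was 171 CPM in flox/flox and 176 in the library labelled BKO for endothelial-like nuclei, 261 and 271 for macrophage-like, 305 and 229 for T cell-like, 220 and 209 for fibroblast-like, and 219 and 213 for pericyte-like nuclei. The interval of the ratio held 0 in each of these 5 classes taken whole. The endothelial-like class, however, consisted of 2 clusters whose shares differed between the libraries. In the one held mostly by flox/flox *Ythdf3* had 160 CPM in flox/flox and 119 in the library labelled BKO, a log2 ratio of -0.43 with an interval of -0.86 to -0.01, and in the other the log2 ratio was 0.10 with an interval of -0.38 to 0.59. The lower level of *Ythdf3* was therefore not particular to adipocyte-like nuclei. Set against the other classes, the difference of the log2 ratio in adipocyte-like nuclei was -0.56 for endothelial-like nuclei taken whole, with an interval of -0.85 to -0.26, where the median over all genes was 0.33 against 0.07 in adipocyte-like nuclei, and -0.57 for macrophage-like nuclei, with an interval of -0.92 to -0.23. It was -0.44 (-0.84 to -0.04) for fibroblast-like and -0.48 (-0.93 to -0.04) for pericyte-like nuclei. For T cell-like nuclei the difference was -0.11 with an interval of -0.57 to 0.36, so the 2 classes could not be separated. The order of classes differed between libraries: adipocyte-like nuclei were second to T cell-like nuclei in flox/flox and were below macrophage-, T cell-, pericyte- and fibroblast-like nuclei in the library labelled BKO.

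The paralogs of *Ythdf3* were not lower in adipocyte-like nuclei labelled BKO. *Ythdf1* had 28.5 CPM from 216 UMIs in adipocyte-like nuclei of flox/flox and 31.6 CPM from 263 UMIs in those labelled BKO, a log2 ratio of 0.15 with an interval of -0.11 to 0.42. *Ythdf2*, whose protein recruits the CCR4-NOT deadenylase to modified mRNA, had 59.6 CPM from 452 UMIs and 63.5 CPM from 528 UMIs, a log2 ratio of 0.09 with an interval of -0.09 to 0.28. In adipocyte-like nuclei with at most 5% mitochondrial UMIs, however, *Ythdf2* had 61.8 and 81.5 CPM, a log2 ratio of 0.40 whose interval of 0.11 to 0.68 left out 0. In the other classes *Ythdf1* lay between 19.2 and 53.0 CPM and *Ythdf2* between 28.3 and 69.1 CPM. The intervals of the ratio between libraries held 0 for both genes in all 5 of them.

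*Ythdc1*, the nuclear reader, had the lowest ratio of the 9 genes in adipocyte-like nuclei. Its level was 235 CPM from 1784 UMIs in flox/flox and 151 CPM from 1253 UMIs in the library labelled BKO, which was 1.56-fold lower, with a log2 ratio of -0.64 and an interval of -0.75 to -0.54. Unlike *Ythdf3*, it was also lower in macrophage-like nuclei, with 258 CPM from 83 UMIs in flox/flox and 153 CPM from 282 UMIs in the library labelled BKO, a log2 ratio of -0.75 with an interval of -1.11 to -0.38. The ratio of adipocyte-like nuclei differed from that of macrophage-like nuclei by 0.11, with an interval of -0.26 to 0.48. In T cell-like nuclei *Ythdc1* had 291 CPM in flox/flox and 210 in the library labelled BKO, in fibroblast-like nuclei 185 and 145, and in endothelial-like nuclei 162 and 152, and the log2 ratio in pericyte-like nuclei was -0.21. The intervals held 0 in these 4 classes taken whole. Within T cell-like nuclei, *Ythdc1* in the nuclei with at least 3 UMIs over 17 cell cycle genes had 558 CPM from 13 UMIs and 183 CPM from 46 UMIs, a log2 ratio of -1.61 with an interval of -2.52 to -0.60, and -0.15 with an interval that held 0 in the others. In one T cell-like cluster at a resolution of 1.0, of 15 and 494 nuclei, the ratio was -1.63 (-2.43 to -0.73), with 14 UMIs in flox/flox. In the other, of 108 and 255 nuclei and led by the plasma cell genes *Igha*, *Jchain* and *Igkc*, it was -0.15 (-0.79 to 0.52). Over 13 alternative settings the ratio was below 0 in adipocyte-, macrophage- and fibroblast-like nuclei each time, and it took both signs in endothelial-, T cell- and pericyte-like nuclei. In macrophage-like nuclei it was -0.15 when nuclei were assigned directly by markers.

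The macrophage-like class was not made up alike in the libraries. At a clustering resolution of 1.0, chosen for description after the data were seen, most of it was split into a macrophage-like cluster of 249 nuclei in flox/flox and 664 in the library labelled BKO, and a dendritic cell-like cluster of 43 and 454 nuclei. *Ythdc1* had 248 CPM in flox/flox and 160 in the library labelled BKO in the macrophage-like cluster, a log2 ratio of -0.64 with an interval of -1.05 to -0.21. In the dendritic cell-like cluster it had 317 CPM from 15 UMIs and 146 CPM from 122 UMIs, a log2 ratio of -1.11 with an interval of -1.89 to -0.23. The lower level was thus found on both sides of the split. The 12 adipocyte markers summed to 8817 CPM in macrophage-like nuclei of flox/flox and 5247 CPM in those labelled BKO, and mitochondrial genes took 5.12% and 8.35% of UMIs. The part of adipocyte RNA or of RNA quality in the level of *Ythdc1* there was not tested.

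*Ythdc2*, the helicase, was a low-count gene with a lower level in adipocyte-like nuclei labelled BKO. It had 36.6 CPM from 278 UMIs in flox/flox and 24.4 CPM from 203 UMIs in the library labelled BKO, which was 1.5-fold lower, with a log2 ratio of -0.59 and an interval of -0.86 to -0.32. The difference of this log2 ratio from that of another class had an interval that held 0 for endothelial-, macrophage-, T cell- and fibroblast-like nuclei, and one of -2.72 to -0.20 for pericyte-like nuclei. *Ythdc2* in adipocyte-like nuclei was thus the highest of 6 classes in flox/flox and the lowest of 6 in the library labelled BKO, although no neighbours in either order could be separated. The *Ythdc2* level in pericyte-like nuclei, 18.9 CPM from 10 UMIs and 34.5 CPM from 11 UMIs, had an interval that held 0.

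The lower levels of *Ythdf3* and *Ythdc1* were not those of a single adipocyte-like cluster. Over the 5 adipocyte-like clusters, which held 145 to 3466 nuclei per library, the log2 ratio ranged from -0.60 to -0.34 for *Ythdf3* and from -1.04 to -0.45 for *Ythdc1*. For *Ythdc2* it ranged from -1.11 to -0.19. In the largest of these clusters *Ythdf3* had 288 CPM in flox/flox and 217 in the library labelled BKO, and *Ythdc1* had 243 and 174 CPM.

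Shares of nuclei with a UMI gave the same direction once depth was equal. After each nucleus was thinned to 1000 UMIs, 3285 adipocyte-like nuclei of flox/flox and 3829 labelled BKO were left, and 3452 and 1087 shallower nuclei were out. A *Ythdf3* UMI was then present in 24.7% of nuclei of flox/flox (exact binomial interval 23.3 to 26.2) and in 17.5% of those labelled BKO (16.3 to 18.7). *Ythdc1* was detected in 20.5% (19.1 to 21.9) and 13.3% (12.2 to 14.4), and *Ythdc2* in 3.53% (2.93 to 4.22) and 2.40% (1.94 to 2.94). Before thinning, 26.0% and 26.3% of nuclei had a *Ythdf3* UMI, 22.1% and 20.5% a *Ythdc1* UMI, and 3.96% and 3.84% a *Ythdc2* UMI, at median depths of 989 and 1476.5 UMIs. These genes are expected in every cell type, so no class gave a background share.

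The mitochondrial share of UMIs moved with these differences. It was 4.46% over adipocyte-like nuclei of flox/flox and 11.7% over those labelled BKO. Of the adipocyte-like nuclei, 5190 of flox/flox and 1059 labelled BKO had at most 5% mitochondrial UMIs. In these, *Ythdf3* had 303 CPM in flox/flox and 249 in the library labelled BKO, a log2 ratio of -0.28 with an interval of -0.43 to -0.13. *Ythdc1* had 247 and 195 CPM, a log2 ratio of -0.34 with an interval of -0.51 to -0.17. Both ratios were thus nearer to 0 than over all adipocyte-like nuclei, and neither gene was past 1.5-fold. *Ythdc2* had 37.6 and 28.8 CPM, a log2 ratio of -0.38 whose interval of -0.85 to 0.05 held 0.

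At a mitochondrial share of 5 to 10%, with 954 and 1447 nuclei, the log2 ratio was -0.28 for *Ythdf3*, -0.54 for *Ythdc1* and -0.85 for *Ythdc2*. At 10 to 25%, with 536 and 2075 nuclei, it was -0.19 for *Ythdf3* with an interval of -0.47 to 0.11, -0.06 for *Ythdc1* with an interval of -0.40 to 0.30, and -0.01 for *Ythdc2*. The level of *Ythdf3* was lower in each bin with a larger mitochondrial share: in flox/flox it had 303, 271, 203 and 94.0 CPM from the lowest to the highest bin, and in the library labelled BKO 249, 223, 178 and 102 CPM. The highest bin held 57 nuclei of flox/flox, with 9 UMIs of *Ythdf3*. *Ythdc1* and *Ythdc2* were not lower in each successive bin of flox/flox: *Ythdc2* had 37.6 and 41.2 CPM in the first 2 bins, and *Ythdc1* had 139.9 and 146 CPM in the last 2. Leaving mitochondrially encoded genes out of the total moved the median log2 ratio of all genes in adipocyte-like nuclei by 0.11, from 0.07 to 0.19, and gave -0.41 for *Ythdf3*, -0.53 for *Ythdc1* and -0.47 for *Ythdc2*. The part of RNA quality in these differences was not tested.

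**Figure D3:**
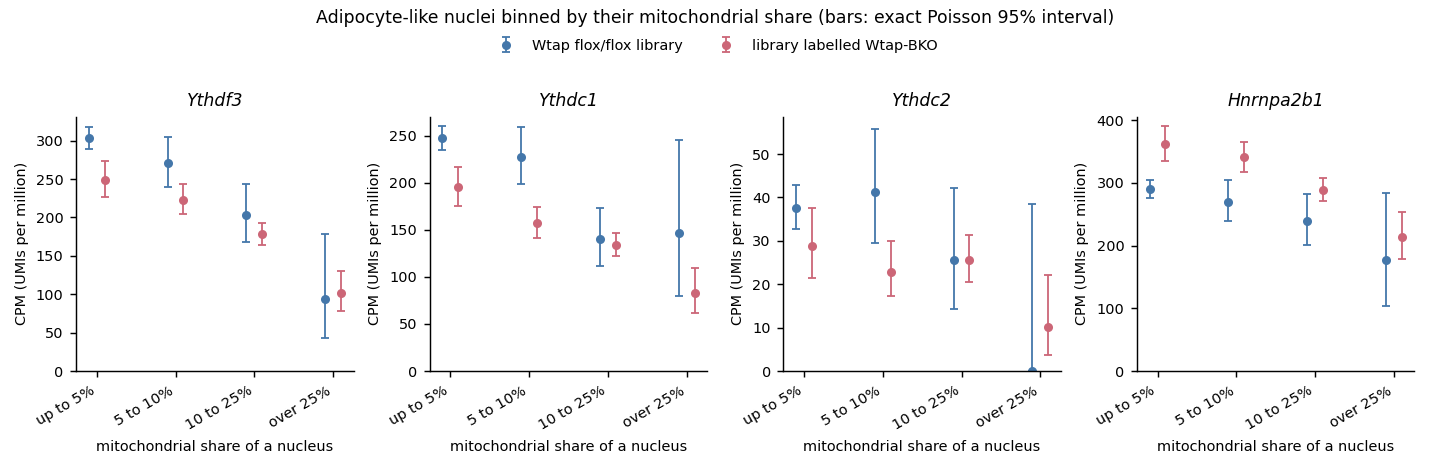
Level (CPM, linear axis from 0) of *Ythdf3*, *Ythdc1*, *Ythdc2* and *Hnrnpa2b1* in adipocyte-like nuclei binned by the mitochondrial share of their UMIs, with flox/flox in blue and the library labelled BKO in red. Bars are exact Poisson 95% intervals. *Ythdf3* is lower in red in the bins up to 5% and 5 to 10%, whereas *Hnrnpa2b1* is higher in red in the first 3 bins.

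The *Igf2bp* genes are described by class next. In flox/flox, *Igf2bp2* had 38.3 CPM from 12 UMIs in fibroblast-like nuclei and 13.6 CPM from 103 UMIs in adipocyte-like nuclei, which was 2.82-fold higher in fibroblast-like nuclei, with an interval of 0.50 to 2.36 on the log2 scale. In the library labelled BKO it had 62.7 CPM from 64 UMIs and 12.1 CPM, which was 5.17-fold higher, with a log2 ratio of 2.37 and an interval of 1.89 to 2.84. For scale, 20.3% and 18.2% of genes were at least 2-fold higher in fibroblast-like than in adipocyte-like nuclei of the 2 libraries. Adipocyte-like nuclei had the second-highest *Igf2bp2* level in flox/flox and the third-highest in the library labelled BKO.

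*Igf2bp2* was among the genes with enough UMIs in macrophage-like nuclei only through its UMIs in the library labelled BKO. It had 6.22 CPM from 2 UMIs in flox/flox and 33.7 CPM from 62 UMIs in the library labelled BKO, a log2 ratio of 2.44 with an interval of 0.52 to 5.52. Within the library labelled BKO it was 2.78-fold higher in macrophage-like than in adipocyte-like nuclei, as were 20.6% of genes at 2-fold or more. In adipocyte-like nuclei, where the gene had enough UMIs in both libraries, the log2 ratio was -0.16 with an interval of -0.57 to 0.25. In fibroblast-like nuclei the log2 ratio was 0.71 with an interval of -0.19 to 1.74, beside adipocyte markers that summed to 6442 and 4841 CPM. *Igf2bp2* in the remaining classes rested on 2 to 10 UMIs per library.

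*Igf2bp3* was near the limit of detection outside immune cells. It had 3.03 CPM from 23 UMIs in adipocyte-like nuclei of flox/flox and 2.88 CPM from 24 UMIs in those labelled BKO. In macrophage-like nuclei it had 15.6 CPM from 5 UMIs and 37.6 CPM from 69 UMIs, a log2 ratio of 1.27 with an interval of -0.02 to 2.94. The macrophage-like level was 5.13-fold that of adipocyte-like nuclei in flox/flox, with an interval of the log2 ratio of 0.61 to 3.79, and stood at a log2 ratio of 3.70 in the library labelled BKO, with an interval of 3.01 to 4.44. At least 2-fold higher levels were found for 21% and 20.6% of genes in the same comparisons. In T cell-like nuclei *Igf2bp3* had 6.62 CPM from 1 UMI in flox/flox and 15.4 CPM from 16 UMIs in the library labelled BKO, where it was 5.36-fold the adipocyte-like level, beside 20.6% of genes at 2-fold or more. Fibroblast-like nuclei of flox/flox held 0 UMIs, where the limit of 3 UMIs that a count of 0 allows is 9.58 CPM, and those labelled BKO held 5 UMIs or 4.90 CPM.

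At the resolution of 1.0, both *Igf2bp* genes had higher levels in the macrophage-like than in the dendritic cell-like cluster of the library labelled BKO, and the depth of flox/flox was too low to compare these clusters. In the macrophage-like cluster *Igf2bp2* had 7.30 CPM from 2 UMIs in flox/flox and 55.9 CPM from 56 UMIs in the library labelled BKO, a log2 ratio of 2.94 with an interval of 1.02 to 6.02. *Igf2bp3* had 18.3 CPM from 5 UMIs and 63.9 CPM from 64 UMIs there, a log2 ratio of 1.81 with an interval of 0.51 to 3.48. The dendritic cell-like cluster of the library labelled BKO had 7.19 CPM of *Igf2bp2* from 6 UMIs and 5.99 CPM of *Igf2bp3* from 5 UMIs, and that of flox/flox had 0 UMIs of either in 43 nuclei, with an interval that reached 77.9 CPM. The UMIs were spread over many nuclei: in the macrophage-like cluster labelled BKO, 37 of 664 nuclei (5.57%) had an *Igf2bp2* UMI and 48 (7.23%) an *Igf2bp3* UMI, with 6 nuclei holding both and at most 5 and 3 UMIs per nucleus. In flox/flox 2 and 4 of 249 nuclei had one. Median depth was 878 UMIs in flox/flox and 1149.5 in the library labelled BKO. Over the whole macrophage-like class thinned to 1000 UMIs, an *Igf2bp2* UMI was present in 0.80% of nuclei of flox/flox (0.02 to 4.38) and 2.12% of those labelled BKO (1.22 to 3.42), and an *Igf2bp3* UMI in 1.60% (0.19 to 5.66) and 2.91% (1.83 to 4.38). These intervals overlapped. *Igf2bp1*, the third gene of the family, had 8 and 6 UMIs over all nuclei of the 2 libraries.

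**Figure D4:**
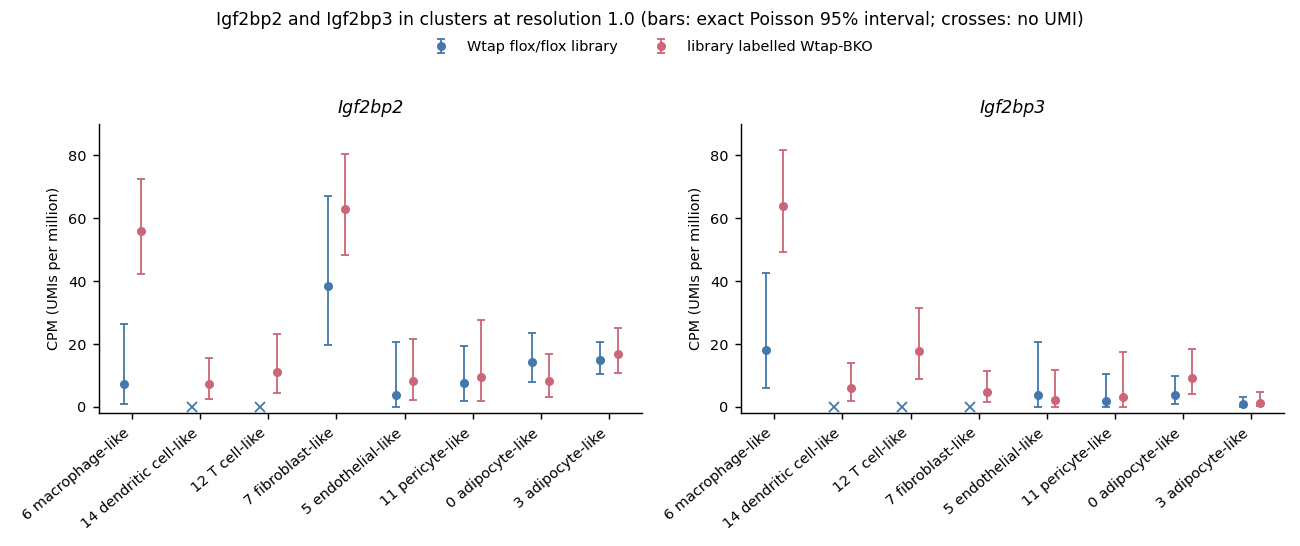
Level of *Igf2bp2* and *Igf2bp3* (CPM, linear axis) in 8 clusters formed at a resolution of 1.0, with flox/flox in blue and the library labelled BKO in red. Bars are exact Poisson 95% intervals and crosses mark clusters with no UMI. *Igf2bp2* stands at 55.9 CPM in the macrophage-like cluster and 62.9 CPM in the fibroblast-like cluster of the library labelled BKO, and *Igf2bp3* at 63.9 CPM in the macrophage-like cluster.

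Macrophage- and fibroblast-like nuclei made up 12.7% and 5.63% of the library labelled BKO and 3.08% and 2.95% of flox/flox, and for both *Igf2bp* genes the sum over all nuclei differed from that over adipocyte-like nuclei. *Igf2bp3* over all nuclei had 3.25 CPM in flox/flox and 8.75 in the library labelled BKO, a log2 ratio of 1.43 with an interval of 0.88 to 2.01, against -0.07 in adipocyte-like nuclei. It was the 1 member at least 1.5-fold higher over all nuclei, where 32.2% of genes were. *Igf2bp2* over all nuclei had 12.3 and 17.9 CPM, a log2 ratio of 0.55 with an interval of 0.24 to 0.86, against -0.16 in adipocyte-like nuclei. In such a sum, more nuclei of a class and more RNA of a gene per nucleus cannot be told apart.

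Of the nuclear hnRNP readers, *Hnrnpa2b1* was the member with a higher level in adipocyte-like nuclei labelled BKO. It had 282 CPM from 2139 UMIs in flox/flox and 315 CPM from 2621 UMIs in the library labelled BKO, a log2 ratio of 0.16 with an interval of 0.08 to 0.24, and 55.3% of genes had a lower ratio. The ratio was above 0 in all 13 alternative settings, between 0.14 and 0.32, and above 0 in each bin of the mitochondrial share. With at most 5% mitochondrial UMIs it was 0.32 with an interval of 0.19 to 0.45, at 290 and 363 CPM. By adipocyte-like cluster, it was 0.37 (0.24 to 0.51) in the largest, and the intervals held 0 in all others. In a cluster of 177 and 462 nuclei it went the other way, at 404 and 336 CPM and a log2 ratio of -0.27 (-0.59 to 0.07). Over the class taken whole, the direction of *Hnrnpa2b1* was thus opposite to that of *Ythdf3* and *Ythdc1*, but the size was below the 1.5-fold limit.

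*Hnrnpa2b1* was also higher in endothelial-like nuclei labelled BKO, with 299 CPM from 435 UMIs in flox/flox and 435 CPM from 431 UMIs, a log2 ratio of 0.54 with an interval of 0.35 to 0.74. The median over all genes of that class was 0.33, and 64.0% of genes had a lower ratio than *Hnrnpa2b1*. That class consisted of a cluster with 818 nuclei of flox/flox and 297 labelled BKO and another with 354 and 564 nuclei, so different clusters held most of it in the 2 libraries. In the cluster held mostly by flox/flox *Hnrnpa2b1* had 268 and 387 CPM, a log2 ratio of 0.53 with an interval of 0.27 to 0.79. In the other it had 451 and 492 CPM, a log2 ratio of 0.13 with an interval of -0.21 to 0.47. The level was higher in that cluster than in the former in both libraries. Over the class, the 12 adipocyte markers summed to 8836 CPM in flox/flox and 7402 CPM in the library labelled BKO, mitochondrial genes took 16.4% and 11.6% of UMIs, and the part of either in the ratio was not tested. Fibroblast markers summed to 189 and 808 CPM there, macrophage markers to 135 and 427 CPM, dendritic cell markers to 263 and 719 CPM and T cell markers to 53.6 and 159 CPM, and their part was not tested either. *Ythdc1* had a log2 ratio of -0.01 in the former cluster, at 144 and 143 CPM, and of -0.63 with an interval of -1.14 to -0.12 in the latter, at 249.5 and 161 CPM.

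The highest level of *Hnrnpa2b1* was in T cell-like nuclei labelled BKO, with 500.1 CPM from 518 UMIs, against 364 CPM from 55 UMIs in flox/flox, a log2 ratio of 0.46 with an interval of 0.05 to 0.89. The median over all genes of the class was 0.15. Over the 13 alternative settings the ratio of *Hnrnpa2b1* there ranged from 0.32 to 1.45. In the library labelled BKO, its level in T cell-like nuclei was separated from the next class in the order, endothelial-like nuclei. Nuclei with at least 3 UMIs over 17 cell cycle genes made up 17.6% of T cell-like nuclei labelled BKO (142 of 806) and 9.92% in flox/flox (13 of 131). In the library labelled BKO, *Hnrnpa2b1* had 701 CPM from 176 UMIs in these cycling nuclei and 436 CPM from 342 UMIs in the others, a log2 ratio of 0.69 with an interval of 0.41 to 0.95, at median depths of 1418.5 and 906.5 UMIs. In flox/flox it had 344 CPM from 8 UMIs in cycling nuclei and 368 CPM from 47 UMIs in the others, a log2 ratio of -0.10 with an interval that held 0. Between the libraries, the log2 ratio of *Hnrnpa2b1* outside cycling nuclei was 0.24 with an interval of -0.20 to 0.72, so it held 0. *Hnrnpc* had 163 and 182 CPM in the cycling and other nuclei of the library labelled BKO, with an interval that held 0. The T cell-like class was also made up differently: at a resolution of 1.0 it fell mostly into a cluster of 15 nuclei of flox/flox and 494 labelled BKO, led by T cell genes with *Gzma* and *Ncr1*, and a cluster of 108 and 255 nuclei, led by the plasma cell genes *Igha*, *Jchain* and *Igkc*. Plasma cell markers summed to 113 CPM over the class in flox/flox and 1822 CPM in the library labelled BKO. *Hnrnpa2b1* had a log2 ratio of 0.39 in the former cluster (-0.61 to 1.62) and 0.40 in the latter (-0.07 to 0.90), so both intervals held 0. The 12 adipocyte markers summed to 12204 CPM in T cell-like nuclei of flox/flox and 6345 CPM in those labelled BKO, and fibroblast markers to 72.8 and 271 CPM. Mitochondrial genes took 4.88% and 9.37% of UMIs. The part of any of these or of plasma cell markers in the ratio was not tested.

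*Hnrnpc* in adipocyte-like nuclei taken whole had 177 CPM from 1340 UMIs in flox/flox and 175 CPM from 1460 UMIs in the library labelled BKO, a log2 ratio of -0.01 with an interval of -0.12 to 0.10. In each bin of the mitochondrial share it was higher in the library labelled BKO, and with at most 5% mitochondrial UMIs it had 181 and 212 CPM, a log2 ratio of 0.23 whose interval of 0.06 to 0.40 left out 0. Adipocyte-like nuclei had its highest level of the 6 classes in flox/flox. In the other 5 classes its level was higher in the library labelled BKO, at 113 and 154 CPM for endothelial-like, 123 and 179 for pericyte-like, 139 and 178 for T cell-like and 174 and 187 for macrophage-like nuclei, and at a log2 ratio of 0.41 for fibroblast-like nuclei. Of all genes, 58.3% had a lower ratio than *Hnrnpc* in endothelial-like nuclei and 77.0% in pericyte-like nuclei. The interval left out 0 for endothelial-like nuclei (0.12 to 0.77) and pericyte-like nuclei (0.0059 to 1.08). In pericyte-like nuclei the skeletal muscle markers summed to 39.6 CPM in flox/flox and 408 CPM in the library labelled BKO, the smooth muscle markers to 217 and 571 CPM and the macrophage markers to 86.8 and 311 CPM, and their part in the ratio was not tested. Within the endothelial-like clusters it held 0, at 0.42 (-0.03 to 0.85) in the one held mostly by flox/flox and 0.03 (-0.52 to 0.60) in the other. Over the alternatives the ratio took both signs in endothelial-, T cell- and macrophage-like nuclei and remained above 0 in fibroblast- and pericyte-like nuclei.

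Outside adipocyte-like nuclei, members past 1.5-fold between libraries were counted class by class. In endothelial-like nuclei 0 of 7 members were past it, against 5.66% of genes lower and 32.7% higher. In macrophage-like nuclei 1 of 9 members, *Ythdc1*, was lower, against 16.7% of genes, and 3 of 9, *Ythdf1*, *Igf2bp2* and *Igf2bp3*, were higher, against 25.2%. These 3 genes had 2 to 7 UMIs in flox/flox and were counted only through their UMIs in the library labelled BKO, so nothing is read from the count. In T cell-like nuclei 1 of 7 members, *Ythdf1*, was lower, against 18.5% of genes, with 8 and 36 UMIs, and 0 were higher, against 30.8%. The latter count depended on the setting. *Hnrnpa2b1* there was past 1.5-fold after thinning, at a log2 ratio of 0.87, and without nuclei over 5% mitochondrial UMIs, at 0.86. In fibroblast-like nuclei 0 of 8 members were lower, against 13.7%, and 1, *Igf2bp2*, was higher, against 23.5%. With 12 and 64 UMIs it too was counted only through the library labelled BKO, and its log2 ratio was 0.02 after thinning to 1000 UMIs, so nothing is read from that count either. In pericyte-like nuclei 1 of 7 members, *Ythdf2*, was lower, against 12.9%, and 1, *Ythdc2*, was higher, against 21.3%. The pericyte-like values rested on 9 to 28 UMIs, beside adipocyte markers that summed to 6916 CPM in flox/flox and 5339 CPM in the library labelled BKO, and all of these intervals held 0 except those of *Ythdc1* and *Igf2bp2* in macrophage-like nuclei.

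The rest of the m6A machinery was placed beside the readers from lists of genes by role, for adipocyte-like nuclei. Over all genes of that class the median was 0.07 on the log2 scale, and 12.2% were at least 1.5-fold lower and 25.2% higher. Of 11 writer genes, 0 were lower and 1 was higher past 1.5-fold, with a median of -0.06. The extremes were *Rbm15b*, an adaptor of the writer complex, at 1.30 (27 and 73 UMIs), and *Mettl3*, the catalytic subunit, at -0.49 (82 and 64 UMIs, interval -0.99 to -0.0016). The erasers *Fto* and *Alkbh5* had log2 ratios of -0.41, at 235 and 176 CPM, and -0.01, at 30.2 and 29.9 CPM. *Fto* was thus lower in the library labelled BKO, while the interval of *Alkbh5* held 0.

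Partners of the readers were mostly within 1.5-fold too, with *Srsf10* the largest exception among the 2 lists of YTHDF and YTHDC1 partners. Of 15 genes that work with YTHDF proteins in mRNA decay, 1 was at least 1.5-fold lower and 0 were higher, with a median of -0.16, from *Cnot8*, a deadenylase subunit, at 0.58 to *Pop1*, a subunit of RNase P/MRP, at -0.65. Of 15 nuclear partners of YTHDC1, 2 were lower and 0 were higher, with a median of -0.14. The lowest of these was *Srsf10*, a splicing factor whose RNA binding YTHDC1 is known to oppose, which had 310 CPM from 2355 UMIs in flox/flox and 123 CPM from 1026 UMIs in the library labelled BKO, a log2 ratio of -1.33 with an interval of -1.44 to -1.23. *Srsf10* was also the lowest gene of this list in endothelial-, macrophage-, T cell- and fibroblast-like nuclei, at -0.78, -1.22, -1.14 and -0.94. *Nxt1*, an export factor subunit, was the highest at 0.52, with an interval that held 0.

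Of 12 other readers or m6A-sensitive binders with enough UMIs, 1 was lower and 0 were higher, with a median of -0.13, from *Eif3b*, a translation initiation factor subunit, at 0.46 to *Rbmx*, a nuclear RNA-binding protein gene, at -0.78. Of 21 other hnRNP genes, 3 were lower and 2 were higher, with a median of -0.19, from *Hnrnpa0* at 1.27 to *Hnrnph3* at -0.64. *Hnrnpa2b1* and *Hnrnpc* were inside that range. Of the 3 partners of YTHDC2, *Xrn1*, the cytoplasmic exonuclease, had enough UMIs, with a log2 ratio of -0.18. Of 17 cell cycle genes, 11 had enough UMIs in adipocyte-like nuclei, of which 6 were higher, against 25.2% of all genes, and 2 lower, against 12.2%, from *Mki67* at 2.77 (6 and 45 UMIs) to *Aspm* at -0.76. Of the 6, *Mki67*, *Top2a*, *Cenpe* and *Cdk1* had 6 to 16 UMIs in flox/flox and were counted only through their UMIs in the library labelled BKO, so nothing is read from the count. Only 4 adipocyte-like nuclei of flox/flox and 5 labelled BKO had at least 3 UMIs over the 17 genes. T cell markers summed to 15.3 and 53.7 CPM in adipocyte-like nuclei of the 2 libraries, macrophage markers to 74.1 and 154 CPM and fibroblast markers to 87.4 and 197 CPM, and their part in these counts was not tested.

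**Figure D5:**
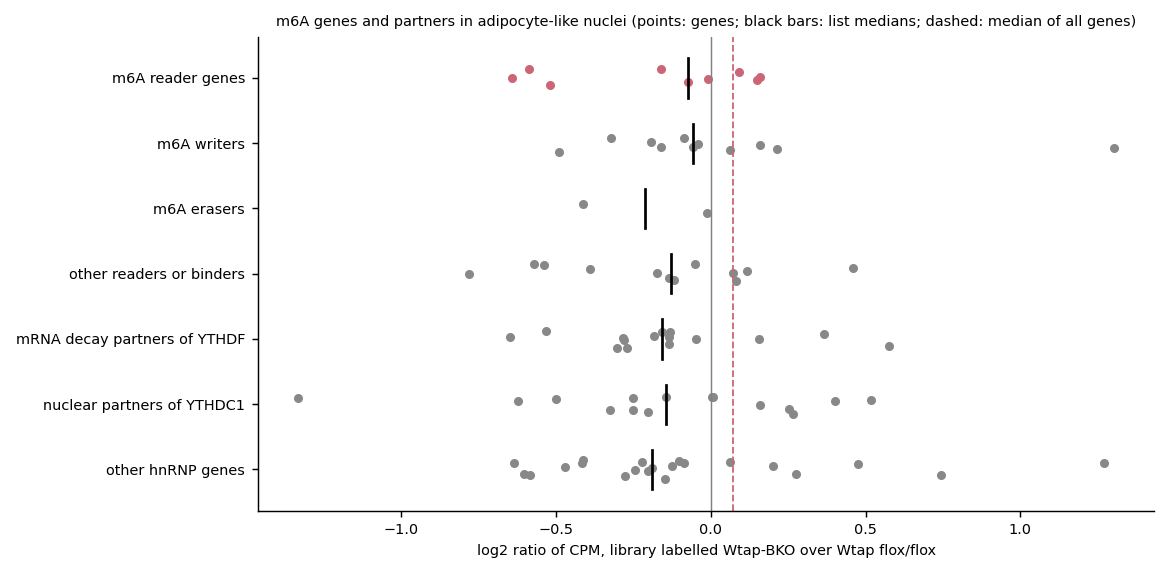
The log2 ratio of CPM, library labelled BKO over flox/flox, in adipocyte-like nuclei for the reader genes (red points) and the genes of 6 other lists (grey points). Black bars are list medians and the dashed line is the median of all genes. The list medians lie between -0.21 and -0.06, and *Srsf10* at -1.33 is the leftmost point.

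As a description of which genes had a like pattern, log2(CPM + 1), centred within each library, was compared over the 12 sums of 6 classes in 2 libraries, among 7277 genes with at least 500 UMIs. The points share libraries, depth and adipocyte RNA found in every class, and with 12 points among 7277 genes high correlations arise easily. The most similar genes were *Rab10*, *Gtf2a1* and *Nipbl* for *Ythdf3* (Pearson's r of 0.97 for *Rab10*), *Ecd*, *Ssrp1* and *Ppp4r3a* for *Ythdc1* (0.95 for *Ecd*), *Pced1b*, *Ets1* and *Nlk* for *Hnrnpa2b1* (0.93 for *Pced1b*), and *Ankhd1*, *Mbd5* and *N4bp2* for *Hnrnpc* (0.93 for *Ankhd1*). For the genes with fewer UMIs they were *Krit1*, *8030462N17Rik* and *Cnot4* for *Ythdf1* (0.90 for *Krit1*), *Nt5m*, *Atp6ap1* and *Chuk* for *Ythdf2* (0.97 for *Nt5m*), and *Tlk2*, *Shoc2* and *Kremen1* for *Ythdc2* (0.85 for *Tlk2*). *Igf2bp2* and *Igf2bp3*, with 382 and 157 UMIs, were below the limit. Between the reader genes themselves, r was highest for *Ythdf3* with *Ythdc1*, at 0.73, followed by *Ythdf3* with *Hnrnpc*, at 0.68, and lowest for *Hnrnpa2b1* with *Hnrnpc*, at -0.38.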

How the data were processed

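Nuclei of frozen iBAT were profiled in 2 droplet libraries (10x Chromium, Illumina NovaSeq), 1 per genotype, each pooled from 4 mice. The deposited values were raw counts of UMIs per gene and nucleus, which the authors had made with Cell Ranger 5.0.0 per the file headers. The submitters' processing notes also name Trimmomatic, FastQC, Seurat and the build mm10, and how intronic reads were counted is not given in the sources used here. The lowest total was 500 UMIs per nucleus, as in the study's own filter, and all nuclei in the files were kept. Of the symbols, 38 stood for more than 1 gene, of which the one listed first was kept.

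Nuclei were grouped by the steps of the study, in Seurat 5.3.0 (R 4.3.3) rather than its earlier version: log-normalisation, 2000 variable features, integration of the libraries, 20 principal components and a resolution of 0.5. The study's methods give both 20 and 8 components, and the latter was an alternative here. None of the reader genes was among the variable features, and they and *Wtap* were barred from them. The 13 clusters were named from 15 marker lists. To be named for a lineage other than adipocyte, a cluster had to hold 3 or more of its markers at 10 UMIs or above and at 2 times their CPM elsewhere or above (1 CPM added to each value). Among clusters still without a name, those in which at least 50% of 12 adipocyte markers had 1.5 times the CPM of the named clusters were called adipocyte-like. This left 416 and 352 nuclei unnamed, in a cluster led by mitochondrial genes, and 22 and 14 Schwann-like nuclei were too few to compare. Scrublet in scanpy 1.11.5 called 3 and 0 doublets, which were too few to use, so no doublet was removed in the values given.

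UMIs were summed per class and library. Poisson, conditional and binomial intervals were exact (scipy 1.17.1), and the interval of a difference between log2 ratios was a normal approximation on log counts. Differences are described by fold, at least 1.5-fold between libraries and 2-fold between classes. These intervals were checked on simulated counts. The members, gene lists, marker lists and alternatives were chosen with earlier results of these data known. Named beside the members are the genes with the highest and lowest ratio of each list, and the 3 genes most like a member with at least 500 UMIs. The background of genes with at least 500 UMIs, the split of endothelial-like nuclei, the order of classes, the shares of nuclei with *Igf2bp* UMIs, cycling against other T cell-like nuclei and 2 of the alternatives were added after the data were seen. Sequences were not analysed here.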

Additional observations from a re-analysis of the deposited data

How the results depend on the processing

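The values were recomputed under 11 alternative settings and 2 more added after the data were seen, which were removal of nuclei with over 5% mitochondrial UMIs together with median-of-ratios scaling, and adipocyte-like clusters 0 and 2 alone. In adipocyte-like nuclei the log2 ratio kept its sign in all 13 for *Ythdf3* (-0.55 to -0.28), *Ythdc1* (-0.66 to -0.34), *Ythdc2* (-0.61 to -0.38), *Hnrnpa2b1* (0.14 to 0.32), *Ythdf1* (0.10 to 0.33) and *Ythdf2* (0.03 to 0.40), and took both signs for *Igf2bp2* (-0.24 to 0.11), *Hnrnpc* (-0.03 to 0.23) and, in 10 alternatives with enough UMIs, *Igf2bp3* (-0.09 to 0.77). In macrophage-like nuclei *Igf2bp2* ranged from 1.73 to 2.94 in 12 alternatives, *Igf2bp3* from 0.89 to 2.37 and *Ythdc1* from -0.85 to -0.15, the last of these with nuclei assigned directly by markers. *Igf2bp2* in fibroblast-like nuclei ranged from 0.02, after thinning, to 0.89. *Hnrnpa2b1* ranged from 0.32 to 1.45 in T cell-like and from 0.18 to 0.58 in endothelial-like nuclei.

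The count of members past 1.5-fold in adipocyte-like nuclei, 2 as reported, was 0 without nuclei over 5% mitochondrial UMIs, 0 with that removal and median-of-ratios scaling, and 0 with mitochondrial genes left out of the total. It was 1, *Ythdc1*, with median-of-ratios scaling, with 8 principal components, and with the mean of CPM per nucleus. With nuclei assigned directly by markers it was 1 as well, but that was *Igf2bp3*, higher at 0.77, while *Ythdc1* at -0.56 and *Ythdc2* at -0.54 were inside the limit. The median over members, -0.07 as reported, was 0.11 with nuclei assigned directly by markers. Levels past 2-fold between classes, 10 as reported, were 6 without nuclei over 5% mitochondrial UMIs. The cause was not tested. Of single values, 123 of the recomputed CPM values moved beyond the interval of the reported value and 1065 did not, as did 40 and 541 of the ratios between libraries and 90 and 1020 of the ratios between classes.

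No paired analysis was possible because each genotype had 1 library, and no replicate could be left out. Counting error left *Igf2bp2* and *Igf2bp3* with wide intervals in flox/flox outside adipocyte-like nuclei, where they had 0 to 12 UMIs per class. With 1 library per genotype, mouse, pooling, nuclei preparation, depth and mitochondrial share cannot be told apart from genotype.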
